A study of Mus musculus with 4 samples.

Results

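Serum amyloid A proteins, orosomucoids, lipocalin 2, haptoglobin, hemopexin and serum amyloid P are plasma proteins that mouse liver makes, most of them in larger amounts during inflammation. The genes followed here were Saa1, Saa2, Saa3, Saa4, Orm1, Orm2, Lcn2, Hp, Hpx and Apcs, taken by name. All probe sets annotated to 1 of these 10 symbols were used, which gave 12 probe sets among 22626 on the array, or 10 of 12393 genes. Both Saa1 and Saa4 were read by 2 probe sets and each other gene by 1.

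Liver RNA came from 4 wild-type C57/BL6 mice, 1 month old, each measured on its own Affymetrix array. In the starved group were 2 mice labelled as starved for 24 h, and in the control group 2 mice labelled as control. The description field calls the starved animals injected and the control animals not injected. What that injection was is not given in the sources used here, and the groups follow the titles and the treatment field. If the description holds, injection and starvation coincide, and no starved-to-control difference below can be assigned to starvation apart from the injection. Values are log2 signals from the robust multi-array average (RMA), which gives 1 summary per probe set, so a difference of 1 is a 2-fold difference. Changes are the starved mean minus the control mean, with the standard error (SE) of the fit. Because RNA came from whole liver, fewer cells of a type and less RNA per cell cannot be told apart.

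In the acute phase response, hepatocytes change the set of proteins they secrete within hours of infection or injury. Interleukin 6, signalling through the receptor subunit gp130 and the factor STAT3, and interleukin 1, signalling through NF-kB, act with C/EBP factors on the promoters of these genes. Saa1 and Saa2 encode the acute phase serum amyloid A proteins, which travel on high-density lipoprotein. Saa3 encodes a form made by the liver and by macrophages and fat cells, and Saa4 encodes a form that is made constitutively. The orosomucoids Orm1 and Orm2 bind small lipophilic molecules, lipocalin 2 binds bacterial siderophores, haptoglobin (Hp) captures free haemoglobin and hemopexin (Hpx) captures free haem. Apcs encodes serum amyloid P, a pentraxin that is an acute phase protein in mice.

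The control arrays differed on these genes, and most of the starved-to-control difference went with 1 of them. Control 2 had the highest signal of the 4 arrays on 12 of 12 member probe sets, against 23.9% of all probe sets. It lay at least 2-fold above control 1 on 7 of the 12, against 0.455% of all probe sets. Against control 2 the starved mean was at least 2-fold lower on 8 of 12 member probe sets (0.999% of all probe sets), and against control 1 on 1 of 12 (0.72%). Both starved arrays lay below control 2 on 12 of 12 (33.9% of all probe sets) and below control 1 on 8 of 12 (37.3%). These comparisons share the starved arrays or control 2, so they are not independent of each other. The pattern that held against both control arrays with the clearest gap was that of Saa4.

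**Figure D1:**
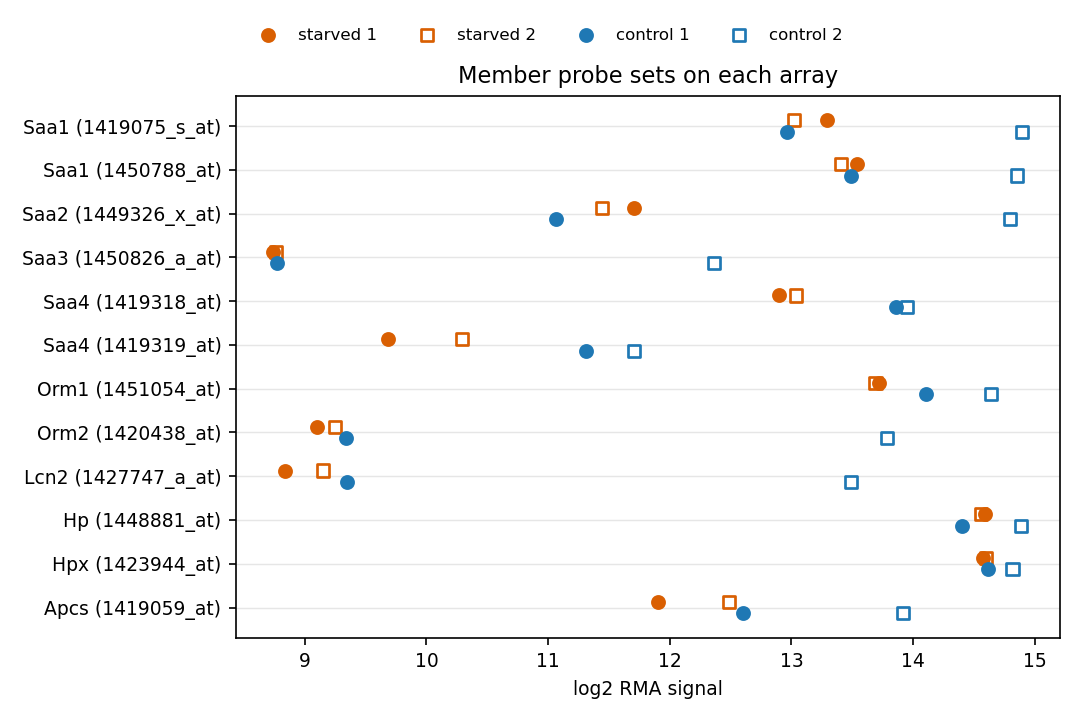
Log2 RMA signal (horizontal axis) of the 12 member probe sets (vertical axis) on starved 1, starved 2, control 1 and control 2, with 1 point per array. For Orm2, Lcn2 and Saa3 both starved arrays and control 1 sit together between 8.74 and 9.35 and control 2 lies alone between 12.36 and 13.79, while for Saa4 both starved points lie left of both control points.

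Over all 12 member probe sets the median log2 change was -0.998, against 0.0028 over all probe sets tested. The median of the starved mean minus control 1 was -0.095, and that of the starved mean minus control 2 was -1.72. No member probe set passed the limma test at a Benjamini-Hochberg adjusted p of 0.05, and 0.0575% of all probe sets did. At an unadjusted p of 0.05, 3 of 12 member probe sets were lower in starved liver, both of Saa4 and that of Orm1, against 6.04% of all probe sets. Without control 1 the same test called 4 of 12 member probe sets, all lower (0.252% of all probe sets), and without control 2 it called 0 of 12 (0.0751%). With trend and robust variance settings it called 1 of 12, a Saa4 probe set (0.261%). These adjusted p-values rest on few mice. Of the 5.83 degrees of freedom in the main fit, 3.83 came from the spread over all probe sets. A fit with 1 array left out has no spread within the group of 1 mouse. It assumes that this mouse varies like the other group. The calls without control 1 therefore rest on control 2 as the only control mouse.

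Promoter windows were available for 8 of the 10 genes, each from 250 bases before to 50 after the annotated start, from RefSeq on the mouse build GRCm38.p6. They are shown for the 4 genes on which control 2 stood furthest above control 1 and for Saa4, so that their sequences can be set beside the signals. Capitals mark matches to the C/EBP motif TTGCNNAA on either strand and to the NF-kB motif (GGG and TCC with 4 free bases between), and N is any base.
Saa2, chr7:46751583-46751882, plus strand: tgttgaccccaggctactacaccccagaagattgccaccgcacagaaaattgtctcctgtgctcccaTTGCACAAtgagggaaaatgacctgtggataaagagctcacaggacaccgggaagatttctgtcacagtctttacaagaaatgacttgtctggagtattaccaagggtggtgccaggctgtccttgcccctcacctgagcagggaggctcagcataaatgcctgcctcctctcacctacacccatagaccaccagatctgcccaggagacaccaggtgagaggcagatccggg
Saa3, chr7:46715627-46715926, minus strand: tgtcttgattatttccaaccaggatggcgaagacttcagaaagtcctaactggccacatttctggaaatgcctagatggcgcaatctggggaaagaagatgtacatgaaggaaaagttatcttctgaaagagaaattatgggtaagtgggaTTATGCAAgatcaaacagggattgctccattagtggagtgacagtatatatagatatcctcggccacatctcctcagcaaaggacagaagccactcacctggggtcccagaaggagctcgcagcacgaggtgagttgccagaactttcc
Orm2, chr4:63362199-63362498, plus strand: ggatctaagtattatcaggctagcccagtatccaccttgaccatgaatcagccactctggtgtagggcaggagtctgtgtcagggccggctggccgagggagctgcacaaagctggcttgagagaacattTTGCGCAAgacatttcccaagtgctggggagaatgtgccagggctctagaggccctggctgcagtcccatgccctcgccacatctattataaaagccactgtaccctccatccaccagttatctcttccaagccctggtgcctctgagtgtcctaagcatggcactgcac
Lcn2, chr2:32387690-32387989, minus strand: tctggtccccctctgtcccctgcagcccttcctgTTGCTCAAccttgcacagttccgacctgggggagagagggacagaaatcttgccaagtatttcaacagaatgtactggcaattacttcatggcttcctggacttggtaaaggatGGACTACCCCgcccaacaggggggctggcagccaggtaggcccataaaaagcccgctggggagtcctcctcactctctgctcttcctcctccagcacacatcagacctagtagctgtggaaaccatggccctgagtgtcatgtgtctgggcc
Saa4, chr7:46732554-46732853, minus strand: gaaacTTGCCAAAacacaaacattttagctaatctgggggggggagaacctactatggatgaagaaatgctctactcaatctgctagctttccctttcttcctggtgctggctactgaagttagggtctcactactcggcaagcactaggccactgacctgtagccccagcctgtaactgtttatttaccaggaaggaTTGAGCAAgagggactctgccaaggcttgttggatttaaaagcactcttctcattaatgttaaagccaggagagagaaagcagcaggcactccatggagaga

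The C/EBP motif was found in 7 of the 8 member windows and in 10.8% of all 32851 promoter windows of that length. It lay 182 bases before the start of Saa1, 183 before that of Saa2, 99 before that of Saa3 and 120 before that of Orm2, where the match is a palindrome and reads on both strands. In the Lcn2 window it began 216 bases before the start, in the Hpx window 200, and the Saa4 window held matches at 245 and 52 bases. The Apcs window held none, and was the 1 member window with the STAT motif TTCNNNGAA, which 8.3% of all windows hold. The NF-kB motif was found in Lcn2 (19.2% of all windows), as was the glucocorticoid receptor motif ACANNNTGT (6.85%). Lcn2 was the 1 member with the NF-kB and C/EBP motifs together, which 1.65% of all windows hold. The Saa1 and Saa2 windows matched in 287 of 299 aligned bases, so they are not separate observations. A match describes letters in this window, and windows of genes high on control 2 and of Saa4 both held the C/EBP motif.

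Saa1 and Saa2 did not separate starved mice from control mice. The Saa1 probe set 1450788_at had 13.54 and 13.41 on the starved arrays, against 13.49 on control 1 and 14.85 on control 2. Starved and control 1 signals lay within 0.13 of each other, and control 2 stood alone above them. The other Saa1 probe set, 1419075_s_at, had 13.29 and 13.02 on the starved arrays, against 12.96 on control 1 and 14.90 on control 2. Here both starved arrays lay above control 1 and below control 2. Saa2, read by the probe set 1449326_x_at, had 11.71 and 11.44 on the starved arrays, against 11.07 on control 1 and 14.80 on control 2. The Saa2 log2 change was -1.36 ± 1.10 (SE; limma, adjusted p = 0.717), made up of 0.51 against control 1 and -3.23 against control 2. The Saa1 changes were -0.69 ± 0.42 and -0.77 ± 0.58 (SE; adjusted p = 0.597 and 0.692, limma). The Saa1 probe set 1419075_s_at cites a transcript accession that RefSeq places in Saa2, and probe sets of the types _s_at and _x_at may bind related transcripts. The signals of 1419075_s_at and 1449326_x_at therefore cannot be assigned to 1 of the genes, while 1450788_at cites an accession that RefSeq places in Saa1.

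Saa3 gave the tightest agreement between starved mice and control 1. It had 8.74 and 8.76 on the starved arrays, against 8.77 on control 1 and 12.36 on control 2. The first 3 of these signals span 0.03 and control 2 lay 3.59 above control 1, the 8th largest such difference among all probe sets. The log2 change of -1.82 ± 1.06 (SE; limma, adjusted p = 0.585) was -0.02 against control 1 and -3.61 against control 2. Although both starved arrays were below both control arrays, the gap to control 1 was 0.0095, less than the 0.02 between the starved arrays.

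Saa4, the constitutive member, was lower on both starved arrays than on both control arrays in both of its probe sets. Probe set 1419318_at had 12.90 and 13.04 on the starved arrays, against 13.86 on control 1 and 13.95 on control 2. The gap between the groups was 0.82, while the starved arrays differed by 0.14 and the control arrays by 0.09. Probe set 1419319_at had 9.69 and 10.29 on the starved arrays, against 11.31 on control 1 and 11.71 on control 2. Its gap of 1.01 also exceeded the 0.61 between the starved and the 0.40 between the control arrays. By that criterion, chosen after the values were seen, Saa4's were the 2 member probe sets of 12 that separated the groups downward, against 7.16% of all probe sets. Saa4 changed by -0.93 ± 0.12 on the first probe set, a 1.91-fold lower signal, and by -1.52 ± 0.24 on the other, 2.86-fold lower (SE). The limma adjusted p-values were 0.0853 and 0.109, short of the threshold. With trend and robust settings the first probe set passed (limma, adjusted p = 0.0410) and the other did not (adjusted p = 0.0815). Against control 1 alone the Saa4 differences were -0.89 and -1.32, and against control 2 alone -0.98 and -1.72, so size and direction held against each control mouse.

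Orm1, the orosomucoid with signals near the top of the array, was lower in starved liver against each control array but less apart than Saa4. It had 13.72 and 13.69 on the starved arrays, against 14.10 on control 1 and 14.64 on control 2. The starved arrays differed by 0.03, the gap to the nearer control was 0.39, and the control arrays differed by 0.54. The log2 change was -0.67 ± 0.19 (SE; limma, adjusted p = 0.296), with a 95% confidence interval of -1.14 to -0.19 that is not adjusted for the number of probe sets. It was -0.40 against control 1 and -0.94 against control 2.

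Orm2, which lies on chromosome 4 with Orm1 and Orm3, showed one of the widest splits between control mice. It had 9.10 and 9.25 on the starved arrays, against 9.34 on control 1 and 13.79 on control 2. Control 2 was 21.9-fold above control 1, the 2nd largest such difference on the array. The log2 change of -2.39 ± 1.31 (SE; limma, adjusted p = 0.559) was -0.16 against control 1 and -4.61 against control 2. The gap between starved 2 and control 1 was 0.09, less than the 0.14 between the starved arrays.

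Lcn2 had the same kind of profile. Its signals were 8.84 and 9.15 on the starved arrays, against 9.35 on control 1 and 13.49 on control 2. The log2 change was -2.43 ± 1.22 (SE; limma, adjusted p = 0.519). Against control 1 the starved mean was lower by 0.35, close to the 0.31 between the starved arrays, and against control 2 it was 22.6-fold lower. Control 2 exceeded control 1 17.7-fold, the 5th largest difference. Of the 10 probe sets with the largest control 2 minus control 1 difference, 4 were members (Orm2, Lcn2, Saa2 and Saa3). The leading 25 also held 4 members. With control 1 left out, the log2 changes of Orm2, Lcn2, Saa3 and Saa2 were -4.61, -4.50, -3.61 and -3.23. With control 2 left out they were -0.16, -0.35, -0.02 and 0.51. Each of these fits holds 1 control mouse, and the genes were picked by their control difference, so no p-value is given.

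**Figure D2:**
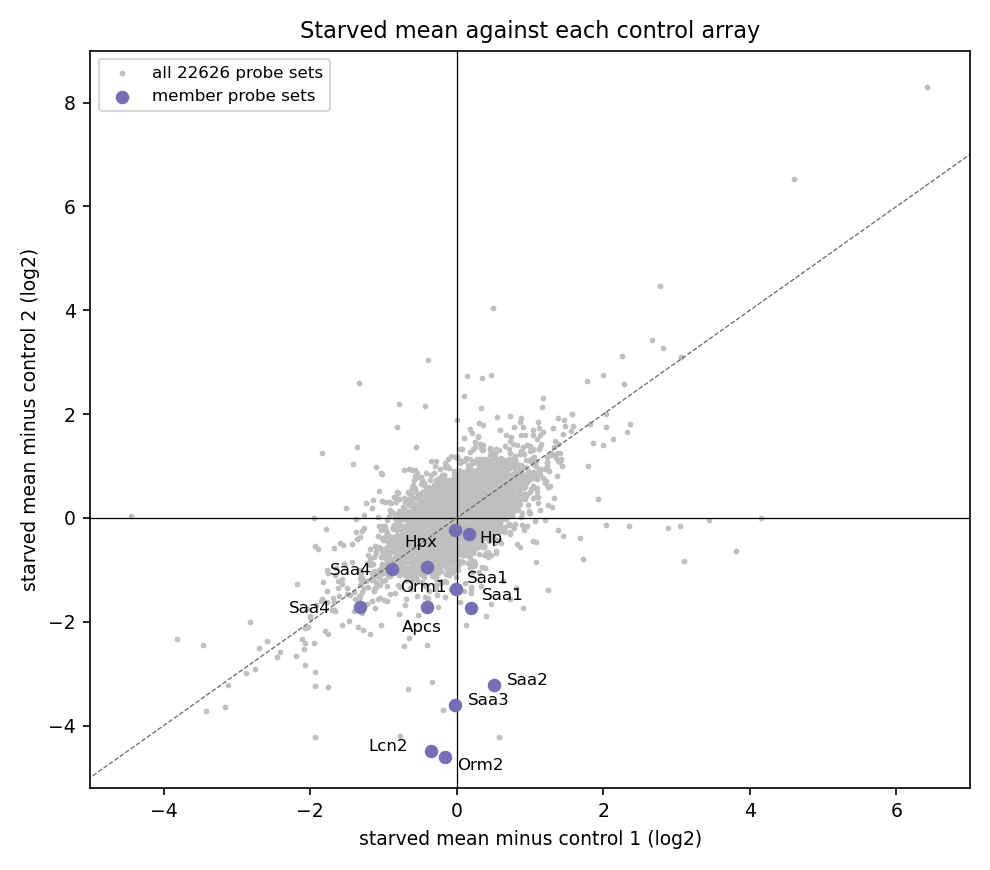
Each point is 1 probe set, placed by the starved mean minus control 1 (horizontal, log2) and the starved mean minus control 2 (vertical, log2), with all 22626 probe sets in grey and the 12 member probe sets in purple. The dashed line marks equal differences against both control arrays, near which the 2 Saa4 points lie at -0.89 and -1.32, while Orm2, Lcn2, Saa3 and Saa2 lie far below it, between -0.35 and 0.51 on the horizontal axis. Both axes share the starved mean.

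The haemoglobin and haem scavengers moved least. Hp had 14.59 and 14.56 on the starved arrays, against 14.41 on control 1 and 14.89 on control 2, so the starved mice lay between the control mice. Hpx had 14.57 and 14.60 on the starved arrays, against 14.61 on control 1 and 14.82 on control 2, with a gap of 0.02 between the groups. The log2 changes were -0.08 for Hp (95% confidence interval -0.52 to 0.37) and -0.13 for Hpx (-0.44 to 0.18), with limma adjusted p-values of 0.936 and 0.776. Hp was 0.17 above control 1 and 0.32 below control 2 on the starved mean, so its direction depended on the control mouse. The mean signals of 6 of the 12 member probe sets, those of Hp, Hpx, Orm1, Saa1 and the first of Saa4, ranked above the 99th percentile of all probe sets. The highest signal on the arrays was 15.47, and whether differences between signals this near it are compressed was not tested.

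Apcs, which lies beside the C-reactive protein gene Crp on chromosome 1, was lower against both control mice by unequal amounts. It had 11.90 and 12.49 on the starved arrays, against 12.60 on control 1 and 13.92 on control 2. Starved 2 and control 1 were 0.11 apart, less than the 0.59 between the starved arrays. The log2 change was -1.06 ± 0.44 (SE; limma, adjusted p = 0.440), or -0.40 against control 1 and -1.72 against control 2. Over all members, both starved arrays lay below both control arrays on 8 of 12 probe sets, against 20.6% of all probe sets, and on 3 of these 8 the gap exceeded the difference between the starved arrays (Saa4 on both probe sets and Orm1).

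Other positive acute phase proteins, a list chosen with earlier results of these data known, were looked at gene by gene with 1 probe set each. Of 30 listed, 24 were measured, and 0 passed the limma test in either direction, against 0.0646% of all genes, with 6 lower and 0 higher at an unadjusted p of 0.05 (6.05% and 5.31% of all genes). Both starved arrays lay below both control arrays in 14 of 24, against 20.9% of all genes. The median log2 change was -0.24, or -0.15 against control 1 and -0.35 against control 2. Hamp, the hepcidin gene, had 12.20 and 12.40 on the starved arrays, against 13.30 and 13.88 on the control arrays. Steap4, a metalloreductase, had 8.92 and 10.23 against 10.92 and 11.68 in controls. Both were lower against each control mouse, with log2 changes of -1.28 ± 0.21 and -1.72 ± 0.46 (SE; limma, adjusted p = 0.117 and 0.268). Itih4, an inter-alpha-trypsin inhibitor chain, and the interferon-induced Ifitm3 had -0.42 ± 0.13 and -0.79 ± 0.22 (SE; adjusted p = 0.326 and 0.286, limma). Against control 1 and control 2, Itih4 differed by -0.34 and -0.50, and Ifitm3 by -0.61 and -0.97.

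Control 2 was at least 2-fold above control 1 in 3 of these 24 genes, against 0.557% of all genes. They were the metallothioneins Mt1 and Mt2 and, named after its values were seen, Lbp, the lipopolysaccharide-binding protein. The metallothioneins did not follow the members. Mt2 had 12.97 and 12.82 on the starved arrays, against 9.09 on control 1 and 13.54 on control 2. Mt1 had 13.85 and 13.61 on the starved arrays, against 10.29 on control 1 and 13.76 on control 2. For both, control 1 was the array apart, and the starved arrays lay near control 2. Lrg1, a leucine-rich glycoprotein, had 12.92 and 13.24 on the starved arrays, against 13.18 on control 1 and 14.04 on control 2. Control 2 was the highest array in 19 of the 24 genes, against 23.5% of all genes.

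**Figure D3:**
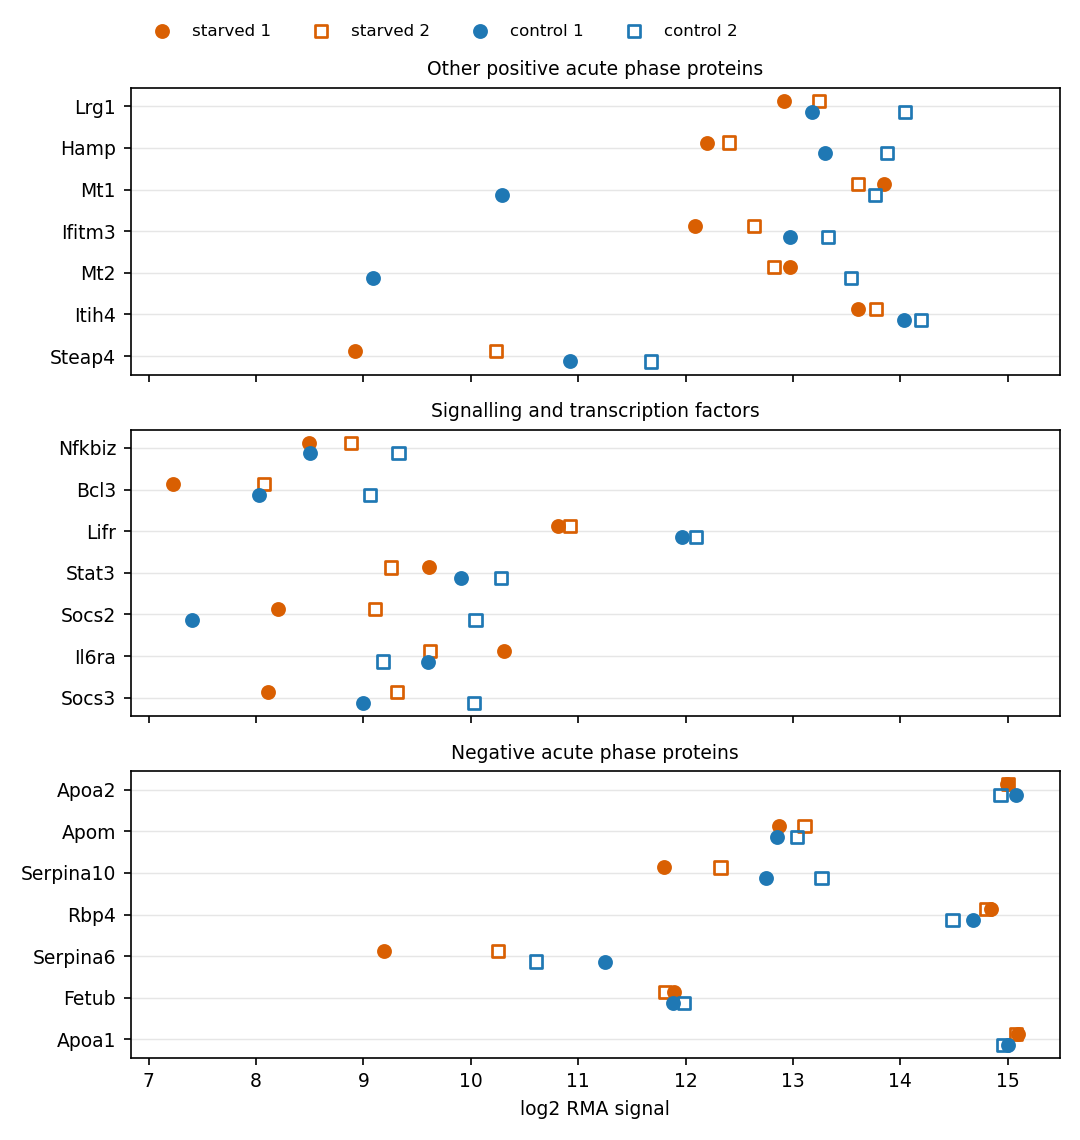
Log2 RMA signal (horizontal axis) on starved 1, starved 2, control 1 and control 2 for genes named by rule from the lists of other positive acute phase proteins, of signalling and transcription factors, and of negative acute phase proteins, with 1 point per array. Hamp, Steap4 and Lifr have both starved points left of both control points, and Mt1 and Mt2 have control 1 alone on the left.

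Of the cytokine signalling genes and transcription factors upstream of the members, 26 were measured, with a median log2 change of -0.08. Of these 26, 0 passed the limma test, against 0.0646% of all genes. At an unadjusted p of 0.05, 2 were lower, or 7.69% of the list against 6.05% of all genes. Control 2 was at least 2-fold above control 1 in 3 of 26 (Bcl3, Socs2 and Socs3), against 0.557% of all genes, and highest of the 4 arrays in 12 of 26, against 23.5%. Lifr, the leukaemia inhibitory factor receptor, which signals with gp130, had 10.81 and 10.93 on the starved arrays, against 11.97 and 12.09 on the control arrays. Its log2 change of -1.16 ± 0.12 (SE; limma, adjusted p = 0.0604) was alike against each control mouse, at -1.10 and -1.23. Stat3, the factor activated by interleukin 6, had 9.61 and 9.26 against 9.91 and 10.28 in controls (limma, adjusted p = 0.290). Il6ra, the interleukin 6 receptor, had 10.31 and 9.62 on the starved arrays, against 9.60 and 9.19 on the control arrays (limma, adjusted p = 0.477). Socs3, the feedback inhibitor induced by STAT3, had 8.11 and 9.31 on the starved arrays, against 8.998 on control 1 and 10.03 on control 2. Bcl3, an NF-kB cofactor, had 7.23 and 8.07 on the starved arrays, against 8.03 on control 1 and 9.06 on control 2. Socs2, a feedback inhibitor of growth hormone signalling, had 8.20 and 9.11 on the starved arrays, against 7.41 on control 1 and 10.04 on control 2.

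The 10 genes listed here as negative acute phase proteins, a class that falls in inflammation, had a median log2 change of -0.01. Of these, 0 passed the limma test, against 0.0646% of all genes. Serpina10, the protein Z-dependent inhibitor, had -0.94 ± 0.24 (SE), Serpina6, the corticosteroid-binding globulin, had -1.21 ± 0.38, and the retinol carrier Rbp4 had 0.24 ± 0.12 (limma, adjusted p = 0.256, 0.333 and 0.534). Against control 1 and control 2, Serpina10 differed by -0.68 and -1.20, Serpina6 by -1.53 and -0.89, and Rbp4 by 0.14 and 0.33. Serpina10 had its highest signal, 13.27, on control 2, as the members did. Whether each listed protein falls in inflammation was not tested here. Of 16 partners and receptors of the members, 0 passed, against 0.0646% of all genes. Lrp1, the receptor that clears hemopexin, had -0.55 ± 0.15, Cd163, the haptoglobin receptor, had 0.50 ± 0.24, and Cd36, a scavenger receptor, had 1.13 ± 0.30 (SE; limma, adjusted p = 0.278, 0.500 and 0.269). Their differences were -0.44, 0.40 and 0.67 against control 1, and -0.66, 0.61 and 1.59 against control 2.

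Genes whose profile over the 4 arrays lay nearest to the members' mean profile were ranked by Euclidean distance after centring each gene on its own mean. The nearest 8 non-members were Tifa (distance 0.30), Orm3 (0.31), Slc3a1 (0.43), Dnajc12 (0.44), Ccdc25 (0.46), Crybb3 (0.62), Npdc1 (0.63) and Elovl3 (0.63). Orm3, which lies between Orm1 and Orm2 on chromosome 4, had 6.97 and 6.85 on the starved arrays, against 7.31 on control 1 and 9.36 on control 2. Its log2 change was -1.43 ± 0.61 (SE; limma, adjusted p = 0.452). Tifa, an adaptor of NF-kB signalling, had 7.13 and 7.48 on the starved arrays, against 7.18 on control 1 and 9.37 on control 2. With 4 arrays such likeness describes only that control 2 was high.

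**Figure D4:**
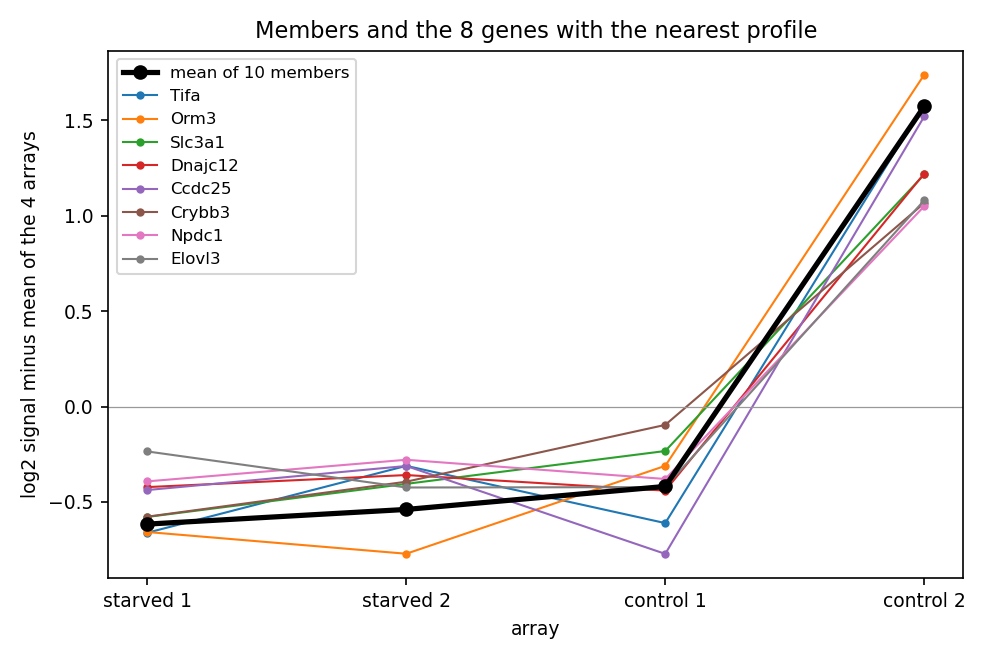
Log2 signal minus each gene's mean over the 4 arrays (vertical axis) on starved 1, starved 2, control 1 and control 2 (horizontal axis), with the mean of the 10 members in black and the 8 nearest non-member genes in colour. The members' mean is -0.62 and -0.54 on the starved arrays, -0.42 on control 1 and 1.57 on control 2.

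Lcn2 is also a neutrophil granule protein, so markers of other cells were read beside it. Of 12 neutrophil markers, 10 were measured, and 7 of these were below the array median on all arrays. The log2 of their summed signal was 8.97 and 9.26 on the starved arrays, against 8.97 on control 1 and 9.76 on control 2. S100a8 had 5.45 and 6.55 on the starved arrays, against 5.53 on control 1 and 7.67 on control 2, and S100a9 had 6.24 and 6.74 against 6.29 and 7.93. The other 8 differed between control 2 and control 1 by -0.07 (Cxcr2) to 0.56 (Mmp8), with Ltf at 0.54, Elane at 0.25 and Ngp at 0.01. Prtn3, a granule protease that was not on the list and is named after its values were seen, had 6.02 and 6.58 on the starved arrays, against 6.64 on control 1 and 9.45 on control 2, a profile like that of the members. For 12 Kupffer cell and macrophage markers the log2 of the summed signal was 13.20 and 13.32 on the starved arrays, against 13.22 on control 1 and 13.57 on control 2. For 8 endothelial markers it was 11.54 and 11.30 on the starved arrays, against 11.86 on control 1 and 10.99 on control 2, and for 8 stellate cell and fibroblast markers 12.11 and 12.17 against 12.50 and 11.64. Control 2 was at least 2-fold above control 1 in 2 neutrophil markers (S100a8 and S100a9) and in 0 markers of every other list, against 0.557% of all genes. The T and B cell, cholangiocyte, erythroid, adipocyte and acinar lists were short, with 9, 5, 4, 4 and 3 markers measured. The part of these cells in the members' signals was not tested. All 8 hepatocyte markers were above the array median, with mean signals of 14.52 and 14.30 on the starved arrays, against 14.40 and 14.33 on the control arrays. For RNA quality, the 3′ actin probe set exceeded the 5′ one by 2.06 and 1.85 on the starved arrays, against 1.79 on control 1 and 1.76 on control 2. For Gapdh the same difference was 0.86 and 0.48 on the starved arrays, against 0.65 on control 1 and 0.54 on control 2. The groups thus overlapped on Gapdh, while on actin both starved arrays lay above both control arrays. What part RNA quality had was not tested either.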

How the data were processed

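Starved and control mouse livers were compared from the deposited table of log2 signals, which the authors computed by RMA. The submitters' processing notes name affy and RMA, with no version, and do not say which arrays were normalized together. The table holds 22690 probe sets, of which 64 array controls were left out. Of the rest, 20380 had 1 gene symbol, 691 several and 1555 none in the platform annotation. Entrez identifiers linked 20351 of those with 1 symbol to a current RefSeq symbol (GRCm38.p6), giving 12393 genes. All 22626 probe sets entered 1 two-sided limma fit (lmFit, eBayes; version 3.58.1, R 4.3.3) without covariates, adjusted by Benjamini-Hochberg at 0.05. Total degrees of freedom were 5.83, of which 3.83 came from the prior. An exact permutation test of 2 against 2 arrays cannot go below p = 0.333 and was not used. Precision is limited by the number of arrays, and the median SE of a log2 change over all probe sets was 0.133. The tests were checked on simulated data.

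Lists were read gene by gene with the probe set of the highest mean. From each list the up to 4 genes with the smallest p and up to 3 more with control 2 furthest from the other arrays could be named. The members, lists and motifs were chosen with earlier results of these data known. Alternatives were a further quantile normalization, arrays shifted to a common median, a filter removing the lowest 40% of probe sets, removal of _x_at and _s_at probe sets, 1 probe set per gene or their mean, trend and robust settings, a replicate block and each array left out. Promoter motifs were counted in Python 3.11.15, and the Saa windows aligned with Biopython 1.88.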

Additional observations from a re-analysis of the deposited data

How the results depend on the processing

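With the replicate number as a replicate block, 0 probe sets passed over the whole array and 0 of the 12 members; the numbers were not treated as pairs, since same-numbered arrays deviated together with r = 0.04 across probe sets. The count of 13 probe sets past the limma test was 23 without _x_at and _s_at probe sets, 8 with 1 probe set per gene, 59 with trend and robust settings and 2 to 57 with 1 array left out (57 without control 1, 2 without starved 1). The members' count of 0 was 1 with trend and robust settings and 0 to 4 with 1 array left out, the 4 without control 1. The members' median log2 change of -0.998 ran from -1.72 without control 1 to -0.095 without control 2. Both starved arrays lay below both control arrays on 8 of 12 member probe sets. That count was 7 after a further quantile normalization and after the shift to a common median. It was 12 without control 1, where control 2 was the only control array. With 1 array left out, the log2 change ranged from -1.74 to 0.20 for Saa1 on 1419075_s_at, from -3.23 to 0.51 for Saa2 and from -0.32 to 0.17 for Hp, each positive without control 2. The median for partners and receptors ranged from -0.0686 to 0.0473, positive without control 2. The other 9 member probe sets kept a negative change in every alternative run, but for several of them it was small without control 2. That change was -0.011 for Saa1 on 1450788_at, -0.02 for Saa3, -0.03 for Hpx and -0.16 for Orm2. It was -0.35 for Lcn2, -0.40 for Orm1 and Apcs, and -0.89 and -1.32 for Saa4. The cause of these changes was not tested beyond which array was left out. A low signal here is not a detection call, so small differences at low signal are not resolved.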

Other observations

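Probe sets on which control 2 stood furthest above control 1 were not all like the members. Cxcl14, a chemokine, led with 4.53 and 5.35 on the starved arrays, against 4.37 on control 1 and 9.16 on control 2. By contrast, Tff3, a trefoil peptide, had 12.17 and 11.85 on the starved arrays, against 7.86 on control 1 and 12.02 on control 2, and Moxd1, a monooxygenase, had 11.94 and 12.07 against 8.90 and 12.84. For Tff3 and Moxd1, as for the metallothioneins, control 1 was the array apart. These genes were named by their rank after the values were seen, and 1 array against 1 gives no test.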
